A study of Arabidopsis thaliana with 8 samples.

Results

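The 10 genes described here are the morning genes of the Arabidopsis circadian clock, namely CCA1 (AT2G46830), LHY (AT1G01060), the REVEILLE genes RVE1 (AT5G17300), RVE2 (AT5G37260), RVE4 (AT5G02840), RVE6 (AT5G52660), RVE7 (AT1G18330) and RVE8 (AT3G09600), and LNK1 (AT5G64170) and LNK2 (AT3G54500). They were taken by locus identifier, as a list drawn up with earlier results of these data known, and are 10 of the 33602 loci in the count table. Counts were read in whole, pooled Arabidopsis thaliana seedlings that germinated at 22 °C in short days and were then kept at 27 °C or 22 °C. Of the hybrids studied, that named pif4 here has the parents C24 and pif4-101, a mutant allele of PIF4, which encodes a transcription factor of warmth-driven growth, and that named Col has the parents C24 and Col. Every plant therefore also has a C24 parent, and a first-generation pif4 hybrid would still carry the C24 copy of PIF4. Seedlings were collected at ZT0, when the lights come on, on day 7 or day 4 after sowing, which gives 8 conditions with 1 library each. The groups are the pif4 hybrid at 27 °C on days 7 and 4, the Col hybrid at 27 °C on days 7 and 4, the pif4 hybrid at 22 °C on days 7 and 4, and the Col hybrid at 22 °C on days 7 and 4. No condition had a replicate, so each factor was compared over 4 matched pairs of libraries and the p-values speak only of the scatter among these 8 pools. A single time of day was sampled, so the levels through the rest of the cycle were not measured.

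CCA1 and LHY are closely related MYB-like transcription factors whose transcripts peak around dawn and which repress genes of the day and evening, such as TOC1 and the PRR genes, partly through a promoter sequence called the evening element. RVE8, RVE4 and RVE6 share the same type of DNA-binding domain but activate evening genes in the afternoon, with LNK1 and LNK2 as co-activators. RVE1 joins the clock to auxin synthesis and hypocotyl growth, and RVE2 and RVE7, first described as CIRCADIAN1 and EARLY-PHYTOCHROME-RESPONSIVE1, are further dawn-phased relatives.

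The stretches just upstream of 4 of these genes are shown because they hold matches to promoter sequences known from the clock, and because CCA1, LHY and RVE2 differed between the temperatures in the opposite direction to RVE7. Each stretch is the 250 bases before the annotated gene start in the TAIR10.1 genome, read 5′ to 3′ along the gene's own strand. The CCA1 stretch is chr2:19245341-19245590 on the plus strand, that of LHY is chr1:37872-38121 on the minus strand, that of RVE2 is chr5:14753089-14753338 on the minus strand and that of RVE7 is chr1:6308244-6308493 on the minus strand. Capitals mark a G-box (CACGTG, a binding sequence of many basic helix-loop-helix and bZIP factors), a CCA1-binding site (AAAAATCT) or an evening element (AAAATATCT), each searched on both strands, and no 2 matches overlapped in the 10 genes.
CCA1: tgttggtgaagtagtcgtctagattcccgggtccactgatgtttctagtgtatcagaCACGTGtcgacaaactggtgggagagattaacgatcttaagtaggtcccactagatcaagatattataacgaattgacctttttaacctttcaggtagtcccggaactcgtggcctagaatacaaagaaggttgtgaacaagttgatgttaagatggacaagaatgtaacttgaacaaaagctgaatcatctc
LHY: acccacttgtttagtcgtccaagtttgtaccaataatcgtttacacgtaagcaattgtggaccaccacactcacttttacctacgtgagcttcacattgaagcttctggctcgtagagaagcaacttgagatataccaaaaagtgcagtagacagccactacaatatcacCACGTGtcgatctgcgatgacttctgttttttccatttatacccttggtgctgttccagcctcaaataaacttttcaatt
RVE2: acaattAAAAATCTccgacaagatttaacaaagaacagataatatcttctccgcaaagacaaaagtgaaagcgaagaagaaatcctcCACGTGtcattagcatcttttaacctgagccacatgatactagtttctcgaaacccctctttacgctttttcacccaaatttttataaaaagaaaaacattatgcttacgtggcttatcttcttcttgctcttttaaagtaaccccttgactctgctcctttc
RVE7: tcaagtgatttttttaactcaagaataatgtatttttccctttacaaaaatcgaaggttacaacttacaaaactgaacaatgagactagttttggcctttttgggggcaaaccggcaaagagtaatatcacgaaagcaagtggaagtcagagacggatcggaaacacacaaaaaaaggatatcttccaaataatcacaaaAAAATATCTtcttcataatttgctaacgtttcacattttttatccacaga
With position 1 at the annotated start and a window of 300 bases that runs from 250 bases before it to position 50, a G-box was found in 7 of the 10 genes, against 7.68% of 27443 protein-coding promoters of the same length. It lay at −193 to −188 in CCA1, at −80 to −75 in LHY, at −111 to −106 in RVE1 and at −163 to −158 in RVE2. In RVE8, LNK1 and LNK2 it lay across or after the start, at positions 12 to 17, −2 to 4 and 25 to 30. The CCA1-binding site was found in RVE2 at −244 to −237 and in RVE6 at −58 to −51, against 7.88% of all promoters. An evening element was found in RVE7 alone among the 10, at −50 to −42, against 2.82% of all promoters and 7 of 18 genes on a list of day and evening clock genes. RVE4 held none of these 3 sequences in this window. These matches are descriptions of sequence, and no binding was measured.

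Total counts ranged from 1664128 in the Col hybrid at 22 °C on day 4 to 25440561 in the Col hybrid at 27 °C on day 7. A count of 3, the limit that a count of 0 allows, was worth 2.15 CPM in the shallowest library and 0.106 CPM in the deepest, and this limit covers counting error only. All levels below are counts scaled to the size of their library with TMM factors (CPM), and changes are log2 fold changes with a standard error (SE). The TMM factor was 0.841 in the shallowest library and 1.12 in the deepest. PIF4 transcripts were read in all 8 libraries, at 157.3 to 187.2 CPM at 27 °C and 62.5 to 97.3 CPM at 22 °C, with 62.5 to 186.3 CPM in the pif4 hybrid and 72.8 to 187.2 CPM in the Col hybrid, and a transcript level does not tell a mutant from a functional copy. Markers of green shoot and of root were both read in all 8 libraries. All 10 morning genes passed the filter on low counts, and the thinnest value among them was that of RVE6 in the shallowest library, 11 counts.

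The comparison of 27 °C with 22 °C asks how the dawn level of each morning gene differs between a warm and a moderate temperature. Warm seedlings had less LHY, RVE2, RVE8, RVE1 and CCA1 transcript at lights on, and more RVE7. LHY fell most, by 0.90 on the log2 scale, and RVE7 rose by 0.93. RVE4, RVE6, LNK1 and LNK2 did not pass the test. In counts, 5 of the 10 genes fell and 1 rose (edgeR's quasi-likelihood test, adjusted p under 0.05), while 38.7% of the 19829 genes tested were called for temperature, 19.2% lower and 19.5% higher. The median log2 fold change of the 10 genes was −0.38, and that of all genes tested was 0.006. In these bulk samples, fewer cells of a type and less RNA per cell cannot be told apart. The 3 shoot markers summed to 5587 to 11897 CPM at 27 °C and 9534 to 31874 CPM at 22 °C, and RBCS1A and CA1 fell, although both calls were lost when any 1 of 7 of the libraries was left out and that of RBCS1A also by DESeq2 (adjusted p = 0.0542). The 4 root markers summed to 74.4 to 131 CPM at 27 °C and 75.6 to 173 CPM at 22 °C, and of these PIN2 fell, a call lost without the pif4 hybrid at 27 °C on day 7 (adjusted p = 0.0636, edgeR) or day 4 (0.0505), in counts thinned to the shallowest library (0.132) and once the library total entered the fit (0.0671). The part of tissue makeup in these results was not tested.

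**Figure D1:**
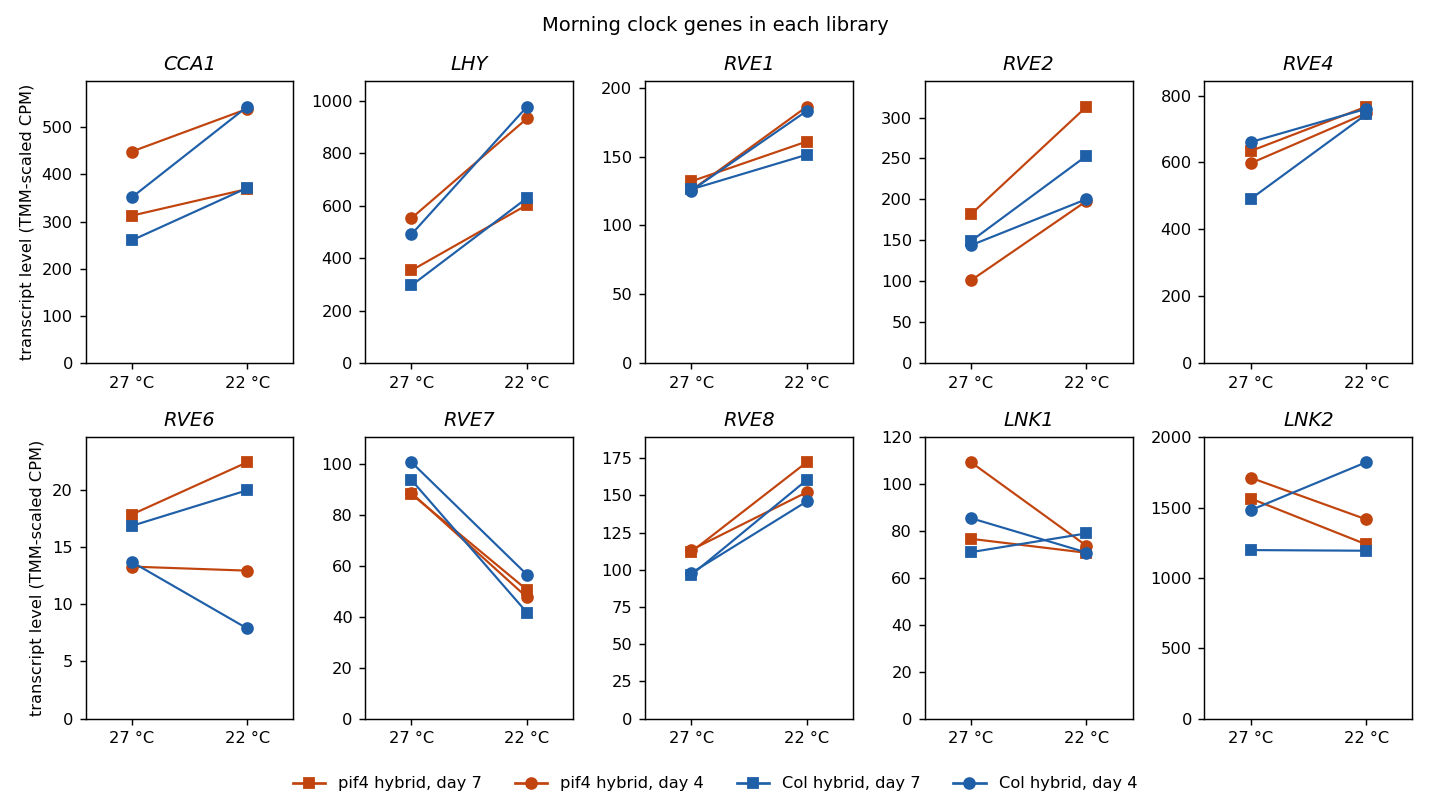
Level of each morning gene (CPM after TMM scaling, axis from 0) in the 8 libraries, with 27 °C on the left and 22 °C on the right of each panel and a line joining the libraries of the same hybrid and day. LHY, RVE1, RVE2, RVE4 and RVE8 have all 4 libraries at 27 °C below all 4 at 22 °C, and RVE7 has all 4 above, at 88.1 to 100.7 CPM at 27 °C against 41.6 to 56.5 CPM at 22 °C.

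LHY (TAIR10.1 chromosome 1, 33365 to 37871, minus strand) showed the steepest fall. At 27 °C it stood at 354 and 553 CPM in the pif4 hybrid on days 7 and 4, and at 296 and 491 CPM in the Col hybrid on days 7 and 4. The 22 °C libraries had 604 and 934 CPM in the pif4 hybrid on days 7 and 4, and 630.2 and 979 CPM in the Col hybrid on days 7 and 4. All 4 warm libraries lay below all 4 at 22 °C, and the 7-day libraries lay below the 4-day libraries within each temperature. The mean was 424 ± 119 CPM at 27 °C and 787 ± 197 CPM at 22 °C (SD, n = 4 each, over both hybrids and days), a log2 change of −0.90 (SE 0.13, adjusted p = 0.00031, edgeR). Its matched pairs gave −0.77 and −0.76 in the pif4 hybrid on days 7 and 4, and −1.09 and −0.99 in the Col hybrid. The warm library was the deeper of the pair except in the pif4 hybrid on day 7, where LHY was also lower at 27 °C.

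CCA1 (chromosome 2, 19245591 to 19248915, plus strand), the partner of LHY, fell less. Warm libraries held 313 and 448 CPM in the pif4 hybrid on days 7 and 4, and 260.2 and 351 CPM in the Col hybrid on days 7 and 4. At 22 °C CCA1 was at 369 and 539 CPM in the pif4 hybrid on days 7 and 4, and at 372 and 544 CPM in the Col hybrid on days 7 and 4. CCA1 was lower at 27 °C in each of 4 pairs, but the temperature groups overlapped, since the pif4 hybrid at 27 °C on day 4 stood above the 7-day libraries at 22 °C. The log2 change was −0.41 (SE 0.12, adjusted p = 0.0187, edgeR). This call was lost without the Col hybrid at 22 °C on day 4 (adjusted p = 0.0536) or on day 7 (0.0875), and once the library total was a covariate (0.0584), each by edgeR.

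The pair was also compared by the ratio of LHY to CCA1 counts inside each library, which does not depend on depth or scaling. At 27 °C the ratio was 1.13 and 1.23 in the pif4 hybrid on days 7 and 4, and 1.14 and 1.4 in the Col hybrid. At 22 °C it was 1.64 and 1.73 in the pif4 hybrid on days 7 and 4, and 1.70 and 1.80 in the Col hybrid. The 2 temperatures did not overlap, and neither did their 95% exact intervals, the nearest of which were 1.34 to 1.46 in the Col hybrid at 27 °C on day 4 and 1.59 to 1.69 in the pif4 hybrid at 22 °C on day 7. The mean log2 ratio was 0.29 at 27 °C and 0.78 at 22 °C, a difference of −0.49 ± 0.091 (SD, n = 4 pairs), lower at 27 °C in 4 of 4 pairs. An exact sign-flip permutation test over the pairs gave a two-sided p of 1 in 8, the smallest that 4 pairs allow, for each of the 3 factors and also after adjustment over them. The ratio was also lower on day 7 than on day 4 in 4 of 4 pairs, by a mean log2 difference of −0.15 ± 0.10, and lower in the pif4 hybrid than in the Col hybrid in 4 of 4 pairs, by −0.075 ± 0.075 (SD, n = 4 pairs each). The 95% exact intervals of the days overlapped at 22 °C in both hybrids. Those of the hybrids overlapped in every pair but that at 27 °C on day 4, and the smallest difference between the hybrids was −0.009.

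**Figure D2:**
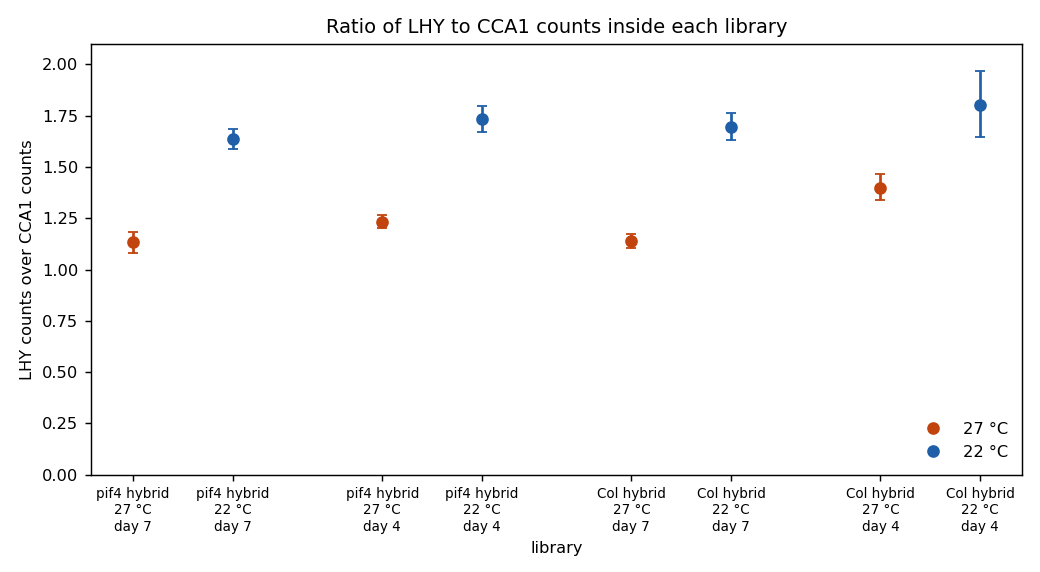
LHY counts over CCA1 counts inside each of the 8 libraries (axis from 0), with bars for the 95% exact interval, which covers counting error only. The 4 libraries at 27 °C sit between 1.13 and 1.4, below the 4 at 22 °C, which sit between 1.64 and 1.80.

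Among the REVEILLE genes close to CCA1 in phase, RVE1 and RVE2 fell and RVE7 rose. RVE1 (chromosome 5, 5690225 to 5692992, minus strand) was at 132 and 125 CPM in the pif4 hybrid at 27 °C on days 7 and 4 and at 126 and 125 CPM in the Col hybrid at 27 °C. The 22 °C libraries had 161 and 186 CPM in the pif4 hybrid on days 7 and 4, and 151 and 183 CPM in the Col hybrid. The warm libraries were nearly equal and lay below all 4 at 22 °C. The log2 change was −0.41 (SE 0.10, adjusted p = 0.00796, edgeR). Its adjusted p was 0.0568 once the library total was a covariate.

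RVE2 (chromosome 5, 14751344 to 14753088, minus strand) stood at 182 and 101 CPM in the pif4 hybrid at 27 °C on days 7 and 4 and at 149 and 144 CPM in the Col hybrid at 27 °C. The 22 °C levels were 313 and 198 CPM in the pif4 hybrid on days 7 and 4, and 253 and 200.3 CPM in the Col hybrid. After TMM scaling, all 4 warm libraries were below all 4 at 22 °C, and the lowest was the pif4 hybrid at 27 °C on day 4. Before scaling the temperatures overlapped, at 168 CPM in the Col hybrid at 22 °C on day 4 and 185 CPM in the pif4 hybrid at 27 °C on day 7. RVE2 fell by 0.74 on the log2 scale (SE 0.14, adjusted p = 0.0013, edgeR).

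RVE7 (chromosome 1, 6305814 to 6308243, minus strand) went the other way. It was at 88.1 and 88.6 CPM in the pif4 hybrid at 27 °C on days 7 and 4 and at 93.7 and 100.7 CPM in the Col hybrid at 27 °C, against 50.5 and 47.6 CPM in the pif4 hybrid at 22 °C and 41.6 and 56.5 CPM in the Col hybrid at 22 °C. Every warm library exceeded every library at 22 °C, and the spread within each temperature was small beside the gap. Its mean was 92.8 ± 5.83 CPM at 27 °C and 49.1 ± 6.19 CPM at 22 °C (SD, n = 4 each), a log2 change of 0.93 (SE 0.11, adjusted p = 7.56e-05, edgeR). RVE7 shares sequence with AT3G10113, a RVE7-like locus on chromosome 3: of the 50-base windows in RVE7 exons, 58.8% occur elsewhere in the genome, as do 88.2% of those in AT3G10113, so reads could have been assigned to either locus. AT3G10113 itself was at 52.8 to 57.8 CPM at 27 °C and 24.2 to 31.5 CPM at 22 °C, a log2 change of 1.03 (adjusted p = 3.5e-05, edgeR). With the counts of both loci summed, a choice made after seeing the data, the log2 change was 0.96 (adjusted p = 6.45e-05, edgeR). Of the other 9 genes, 8 had no such shared window and RVE2 had 0.272%.

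RVE8, RVE4 and RVE6 form the activating branch, and of these RVE8 fell. RVE8 (chromosome 3, 2946239 to 2949017, plus strand) was at 112 and 113 CPM in the pif4 hybrid at 27 °C on days 7 and 4 and at 96.5 and 97.9 CPM in the Col hybrid at 27 °C, against 172 and 152 CPM in the pif4 hybrid at 22 °C and 160.3 and 146 CPM in the Col hybrid at 22 °C. The temperatures did not overlap after TMM scaling. Before scaling they met, with 122.6 CPM both in the Col hybrid at 22 °C on day 4 and in the pif4 hybrid at 27 °C on day 4. The mean was 105 ± 9.0 CPM at 27 °C and 158 ± 11.4 CPM at 22 °C (SD, n = 4 each), a log2 change of −0.59 (SE 0.10, adjusted p = 0.000793, edgeR).

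RVE4 (chromosome 5, 648648 to 651979, plus strand) was at 634 and 598 CPM in the pif4 hybrid at 27 °C on days 7 and 4 and at 491 and 661 CPM in the Col hybrid at 27 °C. At 22 °C the 4 libraries lay close together, at 767 and 747 CPM in the pif4 hybrid and 744 and 761 CPM in the Col hybrid. After TMM scaling all 4 warm libraries were below all 4 at 22 °C, but the spread among the warm ones was wide. Before scaling the temperatures overlapped, at 639 CPM in the Col hybrid at 22 °C on day 4 and 667 CPM in the Col hybrid at 27 °C on day 4. The log2 change of −0.34 (SE 0.14, adjusted p = 0.0685, edgeR) missed the threshold. It passed without the Col hybrid at 27 °C on day 4 (0.0451, edgeR), without the pif4 hybrid at 27 °C on day 7 (0.0267, edgeR) and by DESeq2 (0.0129). LHY, RVE1, RVE2, RVE4 and RVE8 thus had, after TMM scaling, 4 warm libraries below 4 at 22 °C, which 8.72% of all genes tested did on the same scale. RVE7 had 4 above 4, which 9.02% did. For RVE2, RVE4 and RVE8 this separation was absent before scaling.

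RVE6 (chromosome 5, 21359001 to 21362273, minus strand), the least abundant of the 10, was at 17.8 and 13.3 CPM in the pif4 hybrid at 27 °C on days 7 and 4 and at 16.8 and 13.7 CPM in the Col hybrid at 27 °C, against 22.4 and 12.9 CPM in the pif4 hybrid at 22 °C and 19.9 and 7.87 CPM in the Col hybrid at 22 °C. The temperatures overlapped, and the log2 change was −0.09 (SE 0.14, adjusted p = 0.651, edgeR).

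The co-activator genes did not pass the test for temperature. LNK1 (chromosome 5, 25672466 to 25676823, minus strand) was at 76.7 and 109 CPM in the pif4 hybrid at 27 °C on days 7 and 4 and at 71.0 and 85.5 CPM in the Col hybrid at 27 °C, against 70.7 and 73.7 CPM in the pif4 hybrid at 22 °C and 79.0 and 70.8 CPM in the Col hybrid at 22 °C. The pif4 hybrid at 27 °C on day 4 stood apart above the others, and the log2 change was 0.19 (SE 0.12, adjusted p = 0.235, edgeR). LNK2 (chromosome 3, 20175370 to 20179070, minus strand) was at 1565 and 1713 CPM in the pif4 hybrid at 27 °C on days 7 and 4 and at 1198 and 1482 CPM in the Col hybrid at 27 °C, against 1239 and 1417 CPM in the pif4 hybrid at 22 °C and 1194 and 1823 CPM in the Col hybrid at 22 °C. Its groups overlapped throughout, with a log2 change of 0.08 (SE 0.18, adjusted p = 0.758, edgeR). RVE1, LNK1 and LNK2 each overlap a gene on the opposite strand, by 93 to 266 bases, and since the strand setting of the counting is not known, those reads cannot be told apart.

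**Figure D3:**
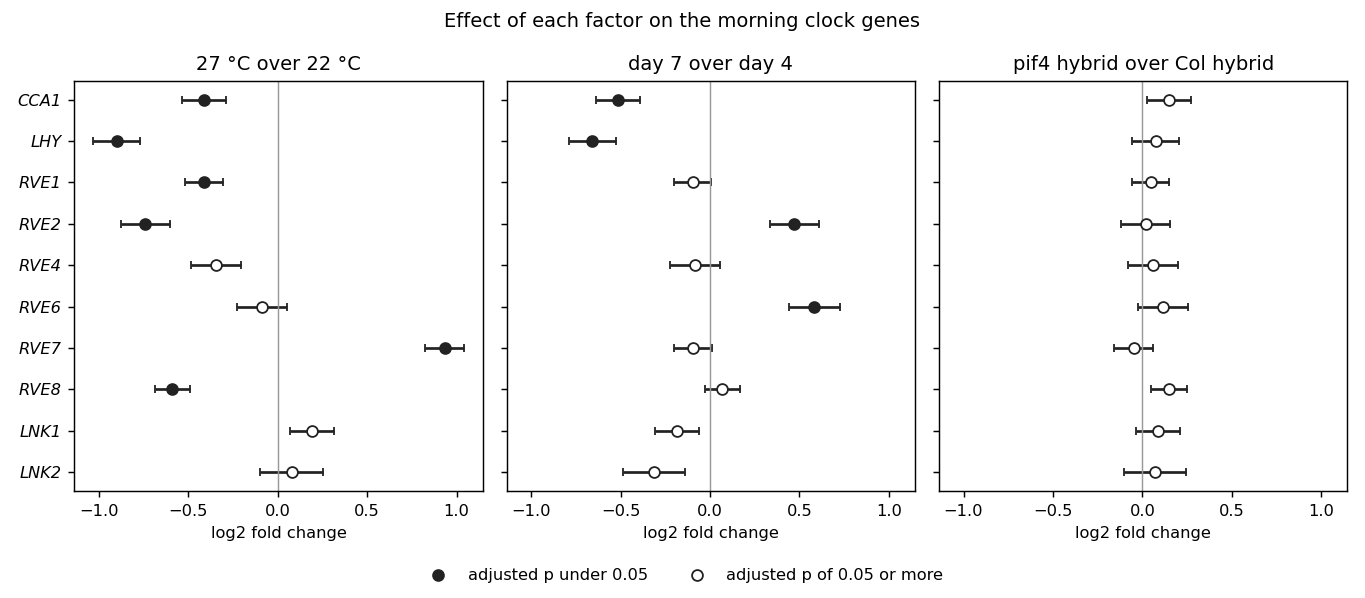
Log2 fold change of each morning gene for 27 °C over 22 °C, day 7 over day 4 and the pif4 hybrid over the Col hybrid, with bars of 1 SE and filled points for an edgeR adjusted p under 0.05. Temperature has 6 filled points, age has 4, and the hybrids have 0, with hybrid effects between −0.05 and 0.15.

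The comparison of day 7 with day 4 asks how the same genes differ as the seedlings age. CCA1 and LHY were lower in older seedlings, whereas RVE2 and RVE6 were higher. Of the 10 genes 2 fell and 2 rose (edgeR, adjusted p under 0.05), while 48.8% of all genes tested were called for age, 24% lower and 24.8% higher. The 4 root markers also all fell with age, summing to 74.4 to 81.5 CPM on day 7 and 130 to 173 CPM on day 4. The 3 shoot markers summed to 5587 to 12499 CPM on day 7 and 7150 to 31874 CPM on day 4, with a median log2 fold change of −0.72, and 1 of the 3 fell. The part of these shifts in the gene levels was not tested. The seed storage gene CRA1 was read at 25.9 CPM in the pif4 hybrid and 77.3 CPM in the Col hybrid at 27 °C on day 4, and at no more than 0.715 CPM in the other 6 libraries.

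LHY averaged 471 ± 170 CPM on day 7 and 739 ± 253 CPM on day 4 (SD, n = 4 each), lower on day 7 in 4 of 4 pairs, a log2 change of −0.66 (SE 0.13, adjusted p = 0.00136, edgeR). CCA1 averaged 328 ± 53.0 CPM on day 7 and 471 ± 90.8 CPM on day 4 (SD, n = 4 each), a log2 change of −0.51 (SE 0.12, adjusted p = 0.00413, edgeR). For both genes the age groups overlapped, with the 7-day libraries at 22 °C above the 4-day library of the Col hybrid at 27 °C. Inside the 27 °C libraries 1 of the 10 genes, LHY, was called for age, against 28.6% of all genes tested, and inside the Col hybrid again LHY alone, against 14.9%. RVE6 was at 16.8 to 22.4 CPM on day 7 and at 7.87 to 13.7 CPM on day 4, with no overlap, as for 15.8% of all genes tested, and rose by a log2 change of 0.58 (SE 0.14, adjusted p = 0.00455, edgeR). RVE2 averaged 224 ± 73.6 CPM on day 7 and 161 ± 47.6 CPM on day 4 (SD, n = 4 each), a log2 change of 0.47 (SE 0.14, adjusted p = 0.0122, edgeR). In the pif4 hybrid RVE2 was at 182 CPM on day 7 and 101 CPM on day 4 at 27 °C, and at 313 CPM on day 7 and 198 CPM on day 4 at 22 °C. The Col hybrid had 149 CPM on day 7 and 144 CPM on day 4 at 27 °C, and 253 CPM on day 7 and 200.3 CPM on day 4 at 22 °C. Its call was lost without the pif4 hybrid at 22 °C on day 7 (adjusted p = 0.0615), at 22 °C on day 4 (0.0624) or at 27 °C on day 4 (0.0670), each by edgeR. Day 7 over day 4, the change was 0.75 in the pif4 hybrid and 0.18 in the Col hybrid, a difference of 0.58 (SE 0.22) that missed the threshold (adjusted p = 0.573, edgeR), while 0.0908% of all genes tested were called for it.

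RVE1, RVE4, RVE7, RVE8, LNK1 and LNK2 were not called for age, with log2 fold changes between −0.31 and 0.07. LNK2, the lowest of these at −0.31 (SE 0.18, adjusted p = 0.155, edgeR), passed by DESeq2 (0.0458) and without the pif4 hybrid at 27 °C on day 7 (0.0195, edgeR). The effect of temperature itself was compared between the days. The temperature effect on day 7 minus that on day 4 ran from −0.51 for RVE6 to 0.28 for RVE1, with a lowest unadjusted p of 0.0514 for LNK1 and no adjusted p under 0.559 (edgeR), while 0.267% of all genes tested were called. For LNK1 the log2 fold change of 27 °C over 22 °C was −0.02 on day 7 and 0.43 on day 4.

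The comparison of the pif4 hybrid with the Col hybrid asks whether the PIF4 mutation moves the dawn levels. No morning gene was called. Log2 fold changes lay between −0.05 for RVE7 and 0.15 for CCA1, with SE from 0.10 to 0.18, and 0 of 10 genes had an unadjusted p under 0.05, with each adjusted p at 1.0 after rounding (edgeR). DESeq2 also called 0 of the 10. Across all genes tested edgeR called 1, which is 0.00504%, with 795 at an unadjusted p under 0.05, and DESeq2 called 12. CCA1 averaged 417 ± 98.4 CPM in the pif4 hybrid and 382 ± 118 CPM in the Col hybrid, and LHY averaged 611 ± 241 CPM in the pif4 hybrid and 599 ± 288 CPM in the Col hybrid (SD, n = 4 each, over both temperatures and days).

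Temperature was also read inside each hybrid, where 13.2% of all genes tested were called in the pif4 hybrid and 11.1% in the Col hybrid. LHY fell by 0.76 in the pif4 hybrid (adjusted p = 0.0283) and by 1.04 in the Col hybrid (0.00784), and RVE8 fell by 0.52 (0.0456) and 0.66 (0.0226) in the pif4 and Col hybrids, all on the log2 scale by edgeR. RVE7 rose by 0.84 in the pif4 hybrid (adjusted p = 0.00986, edgeR) and by 1.03 in the Col hybrid (0.00435). RVE2 fell by 0.87 in the pif4 hybrid (adjusted p = 0.0200, edgeR) and had a log2 change of −0.61 in the Col hybrid (0.0779). CCA1, at −0.25 in the pif4 hybrid (adjusted p = 0.357, edgeR) and −0.57 in the Col hybrid (0.0634), and RVE1, at −0.43 in the pif4 hybrid (0.100) and −0.40 in the Col hybrid (0.140), passed in neither.

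CCA1 and LHY showed one shared feature between the hybrids in the TMM-scaled levels. At 27 °C both were higher in the pif4 hybrid than in the Col hybrid on both days, for CCA1 at 313 CPM in the pif4 hybrid against 260.2 CPM in the Col hybrid on day 7 and 448 CPM in the pif4 hybrid against 351 CPM in the Col hybrid on day 4. At 22 °C both were slightly lower in the pif4 hybrid on both days, for CCA1 at 369 CPM in the pif4 hybrid against 372 CPM in the Col hybrid on day 7 and 539 CPM in the pif4 hybrid against 544 CPM in the Col hybrid on day 4. This direction at 22 °C depended on the scaling. Before it, CCA1 was higher in the pif4 hybrid, at 372 against 363 CPM on day 7 and 521 against 457 CPM on day 4. LHY before scaling was at 609 CPM in the pif4 hybrid against 615 CPM in the Col hybrid on day 7, and at 903 against 822 CPM on day 4. The effects of temperature differed between the hybrids (pif4 minus Col) by 0.32 (SE 0.26) for CCA1 and 0.28 (SE 0.28) for LHY, about as much as the SE itself (adjusted p = 1.0 each, edgeR). Over the 10 genes this difference ran from −0.27 for RVE2 to 0.46 for LNK2, with SE from 0.22 to 0.36 and none at an unadjusted p under 0.05. No gene in the whole table was called (0%), with 188 at an unadjusted p under 0.05.

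**Figure D4:**
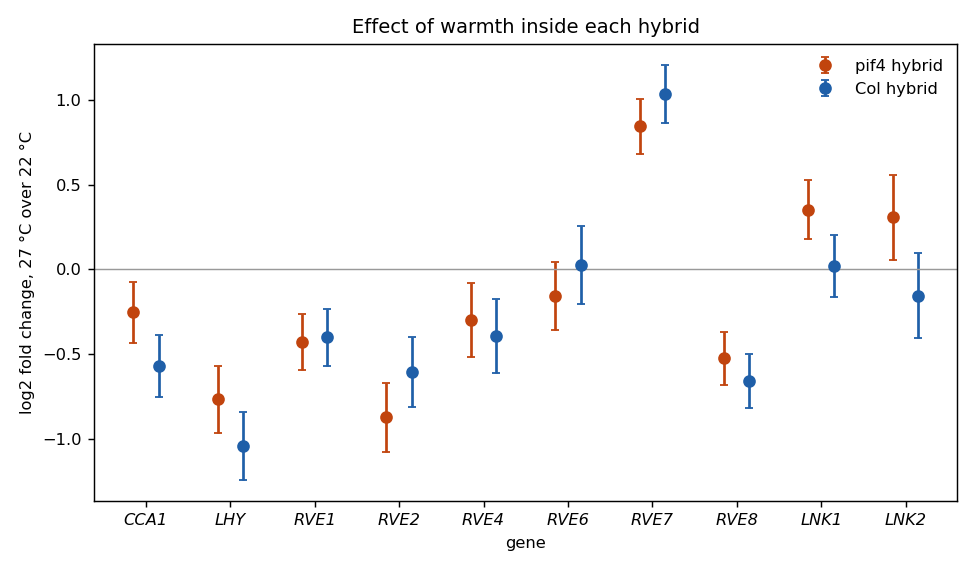
Log2 fold change for 27 °C over 22 °C inside the pif4 hybrid and inside the Col hybrid, with bars of 1 SE. The bars of the hybrids overlap for each gene, and RVE7 lies above 0 in both, at 0.84 in the pif4 hybrid and 1.03 in the Col hybrid.

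Levels were compared between genes per kilobase of annotated exon (RPKM, TMM-scaled), as a mean over the 8 libraries. LNK2 was highest at 497 ± 81.4 RPKM, followed by RVE4 at 320.5 ± 46.6, RVE2 at 197 ± 68.0, LHY at 177 ± 71.8 and CCA1 at 147 ± 37.7 RPKM (SD, n = 8 libraries of 8 conditions). RVE1 had 73.8 ± 12.8, RVE8 56.0 ± 12.7, RVE7 35.0 ± 11.9 and LNK1 29.8 ± 4.90 RPKM. RVE6 was lowest at 9.43 ± 2.77 RPKM. In this order the ranges over libraries overlapped from RVE4 (233 to 364 RPKM) through RVE2 and LHY to CCA1 (95.6 to 199.8), and from RVE1 (62.1 to 92.3) through RVE8 and RVE7 to LNK1 (26.5 to 41.0). LNK2 (408 to 623 RPKM) and RVE6 (4.76 to 13.5) each had a range that no other of the 10 genes entered.

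Beside the morning genes stood 18 day and evening clock genes, of which 17 passed the filter. Of these 14 rose at 27 °C, 0 fell and 3 were not called (CHE, ZTL and JMJD5), against 19.5% of all genes tested that rose, and their median log2 fold change was 0.85. PRR7, which encodes a repressor of CCA1 and LHY, was at 81.4 and 89.8 CPM in the pif4 hybrid at 27 °C on days 7 and 4 and at 104.5 and 71.4 CPM in the Col hybrid at 27 °C, against 20.3 and 21.1 CPM in the pif4 hybrid at 22 °C and 19.2 and 15.7 CPM in the Col hybrid at 22 °C. Its groups were far apart, a log2 change of 2.16 (SE 0.13, adjusted p = 1e-06, edgeR). GI, a clock gene of the afternoon that acts in flowering, rose by 1.51 (SE 0.19), and TOC1, the evening repressor bound by CCA1 and LHY, rose by 0.92 (SE 0.14). PRR9 rose by 0.82 (SE 0.15), and among evening complex genes ELF3 rose by 0.85 (SE 0.17) and LUX by 0.92 (SE 0.13). ELF4 rose by 2.0 (SE 0.49) on few reads, with 11 to 36 counts at 27 °C and 0 to 8 counts at 22 °C. FKF1, below the filter, had 4 to 14 counts in the 4 warm libraries and 0 in each at 22 °C. LUX and BOA each overlap a neighbour on the opposite strand over 1507 and 1896 bases. The calls of LWD2, LKP2 and BOA were lost without the Col hybrid at 22 °C on day 7 (adjusted p = 0.0680, 0.0680 and 0.0709, edgeR), and that of LWD2 also without any 1 of 6 other libraries. LWD2 also missed the threshold by DESeq2 (adjusted p = 0.0562). Once the library total was a covariate, LWD2 and LKP2 missed it (adjusted p = 0.141 and 0.0544, edgeR). When all libraries were thinned to the lowest total, 8 of the list were called, all higher at 27 °C, against 1794 of 15444 genes tested that rose. PRR9, with a log2 change of 0.40 (adjusted p = 0.399, edgeR), and LWD2, with 0.45 (0.0791), were tested there and lost their calls. The other calls lost in thinned counts were of genes that no longer passed the filter.

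**Figure D5:**
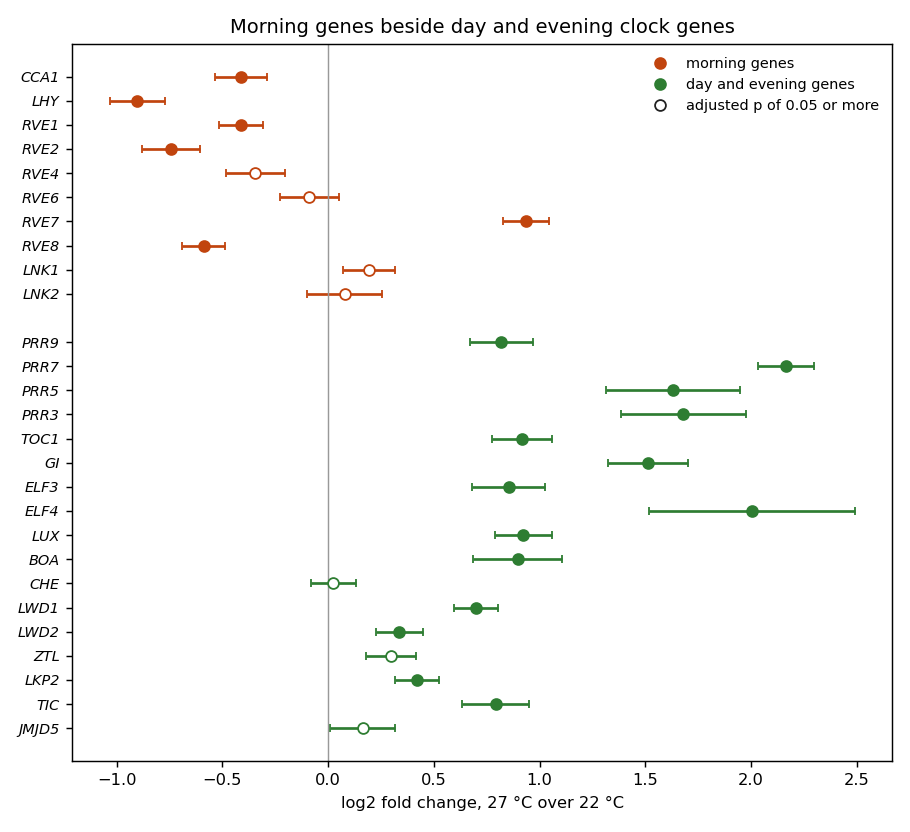
Log2 fold change for 27 °C over 22 °C of the 10 morning genes (upper) and of the 17 day and evening clock genes that passed the filter (lower), with bars of 1 SE and filled points for an edgeR adjusted p under 0.05. Of the morning genes only RVE7 has a filled point above 0, whereas the 14 filled day and evening points are all above 0, up to 2.16 for PRR7.

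With age, 5 of the 17 day and evening genes rose and 4 fell, a share close to that of all genes tested, of which 24.8% rose and 24% fell. GI fell by 0.92 on the log2 scale (SE 0.18, adjusted p = 0.00121, edgeR) and PRR9 rose by 0.67 (SE 0.15, adjusted p = 0.0029, edgeR). Once the library total was a covariate, 5 of them were called in place of 9.

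Of the other REVEILLE and LNK genes, all 5 passed the filter. Besides AT3G10113, RVE3 fell at 27 °C by 1.45 on the log2 scale (SE 0.23, adjusted p = 0.000551, edgeR), at 3.00 and 2.83 CPM in the pif4 hybrid and 1.83 and 3.04 CPM in the Col hybrid at 27 °C, against 9.20 and 8.50 CPM in the pif4 hybrid and 6.04 and 2.15 CPM in the Col hybrid at 22 °C. RVE3 was low throughout, and its lowest 22 °C value rests on 3 counts in the shallowest library. RVE5, LNK3 and LNK4 were not called for temperature. LNK4 rose with age by 0.63 (SE 0.12, adjusted p = 0.000888, edgeR).

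Of 14 known targets and outputs of the morning factors 11 passed the filter, and at 27 °C 5 rose and 2 fell, against 19.5% and 19.2% of all genes tested, so the count that fell is near the background. PIF4 rose by 1.21 (SE 0.11), the auxin synthesis gene YUC8, an RVE1 target, by 0.97 (SE 0.20), and the clock-controlled RNA-binding protein genes GRP7 and GRP8 by 0.58 (SE 0.12) and 0.73 (SE 0.12). The cold- and clock-regulated pair split, with COR28 higher by 1.93 (SE 0.38) on 1 to 5 counts at 22 °C and COR27 lower by 0.86 (SE 0.19). COR27 was lower at 27 °C in 3 of 4 pairs, while in the Col hybrid on day 4 it was at 5.0 CPM at 27 °C against 2.15 CPM at 22 °C, where it had 3 counts. The COR27 call was lost without the pif4 hybrid at 27 °C on day 7 (adjusted p = 0.0572, edgeR). The anthocyanin gene DFR fell by 3.50 (SE 0.40) on 1 to 6 counts at 27 °C.

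Of 6 other genes that peak near dawn, 5 passed the filter, 2 fell and 1 rose at 27 °C, against 19.2% and 19.5% of all genes tested, and with so few genes nothing is read from the count. COL2, a CONSTANS-LIKE gene, was at 161 and 136 CPM in the pif4 hybrid at 27 °C on days 7 and 4 and at 115 and 127 CPM in the Col hybrid at 27 °C, against 333 and 374 CPM in the pif4 hybrid at 22 °C and 329 and 376 CPM in the Col hybrid at 22 °C. Its groups did not overlap, with a log2 change of −1.39 (SE 0.12, adjusted p = 1.1e-05, edgeR), and it overlaps a neighbour on the opposite strand at each end. CDF1, a DOF repressor of flowering, had a log2 change of −0.38 (SE 0.12, adjusted p = 0.0266, edgeR) and CDF5, a relative of CDF1, of 0.64 (SE 0.20, adjusted p = 0.0250, edgeR). Both of these calls were lost without the Col hybrid at 22 °C on day 7 (0.199 and 0.174), the pif4 hybrid at 22 °C on day 4 (0.0574 and 0.0937) or the pif4 hybrid at 27 °C on day 7 (0.112 and 0.128), each by edgeR. The CDF1 call was also lost without the Col hybrid at 27 °C on day 7 (adjusted p = 0.0987, edgeR) or the pif4 hybrid at 22 °C on day 7 (0.0592), in thinned counts (log2 change −0.24, adjusted p = 0.335) and once the library total entered the fit (0.0563).

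Genes of like pattern were sought among 13189 others with a mean of at least 10 CPM, as the highest Pearson r over the 8 libraries, in which all genes share the same depth and scaling, and r is given as a description. The mean of CCA1 and LHY was matched most closely by FAD7, a chloroplast fatty acid desaturase gene (r = 0.994), AT5G35970 (r = 0.991) and ATP-PRT1, of histidine synthesis (r = 0.991), and 139 genes had an r over 0.95. FAD7 spanned 182 to 401 CPM over the libraries. RVE7 was matched most closely by AT3G10113 (r = 0.992), with which it shares sequence, followed by BRCC36A (r = 0.985) and AT1G62290 (r = 0.984), and 71 genes had an r over 0.95.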

How the data were processed

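RNA sequencing of 8 seedling pools gave 1 deposited table of raw counts for each gene, which the authors had not normalised. The submitters' processing notes list HTSeq 0.6.1p1, StringTie 1.3.5, HISAT2, FastQC 0.11.5 and Picard, and the build TAIR10, but no roles or settings. The strand setting and the handling of duplicates are not given in the sources used here, and the labels' protocols name a stranded and an unstranded library kit without saying which library had which. Reads came from hybrids, and how reads of C24 alleles were aligned is not given in the sources used here either.

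Genes were kept when they reached 0.876 CPM, worth 10 counts in a library of median total, in at least 4 of 8 libraries, which left 19829. After TMM scaling, counts went through the quasi-likelihood F-test of edgeR 4.0.16 (in R 4.3.3 with limma 3.58.1), adjusted by Benjamini-Hochberg over all genes tested, with a threshold of 0.05. Temperature, age and genotype were fitted together, with 4 residual degrees of freedom, and each interaction in a model of its own, with 3. An SE is the log2 fold change divided by the square root of F. An SD of a mean level covers libraries that differ in the other factors, so it is not scatter among replicates. The edgeR temperature test was checked on simulated counts with known temperature changes. These counts held no change with age or hybrid, so the check does not cover those tests or the full setting of the data. Alternatives were the size factors and Wald test of DESeq2 1.42.0, no filter, the library total as a covariate, counts thinned to the shallowest library, effects within each hybrid, day or temperature, leaving out each library, and, added after seeing the data, RVE7 and AT3G10113 summed.

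All 10 genes are named, list genes past the threshold may be named (other list genes were named after their values were seen), and genes of like pattern are the 3 with the highest r between log2 CPM values (prior count 2). The members and lists were chosen with earlier results of these data known, so no list is independent evidence. Symbols, exon lengths, overlaps and sequences come from the TAIR10.1 annotation and genome (RefSeq), whose nuclear chromosomes have the lengths of TAIR10.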

Additional observations from a re-analysis of the deposited data

How the results depend on the processing

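The temperature calls of LHY, RVE7 and RVE8 and the age call of LHY held under every alternative run. Leaving out each library gave log2 fold changes of −0.95 to −0.85 for LHY, 0.81 to 1.00 for RVE7 and −0.64 to −0.55 for RVE8 with temperature, and no called result changed sign. Of the 10 genes 3 were called for temperature within the Col hybrid in place of 6, and for age 1 within 27 °C and 1 within the Col hybrid in place of 4. These effects were taken from the interaction models, fitted to all 8 libraries, and each compares fewer libraries with each other. RVE1 missed the threshold for temperature on day 7 (adjusted p = 0.143, edgeR), and CCA1 on both days (0.119 on day 7 and 0.134 on day 4). CCA1 and RVE6 missed it for age within 27 °C (0.0610 and 0.0892, edgeR) and within the Col hybrid (0.0730 and 0.116). The LHY to CCA1 difference stayed between −0.53 and −0.46 for temperature, between −0.17 and −0.097 for age and between −0.097 and −0.039 for the hybrids when each pair was left out. Over all genes, temperature calls numbered 7676, against 4800 with the library total as a covariate, 3819 in thinned counts, where 15444 genes were tested, and 4246 to 9827 without 1 library. Age calls numbered 9671, against 5785 in thinned counts and 7122 to 10863 without 1 library. Genotype calls numbered 1, against 0 to 15 under the alternatives. Age-by-temperature calls numbered 53, against 7 in thinned counts, 294 without a filter and 0 to 1780 without 1 library, the highest without the pif4 hybrid at 27 °C on day 4. Genotype-by-age calls numbered 18, against 15 to 74. The labels carry no replicate numbers to pair by, so the only pairs used were conditions matched on the other factors. Depth limits RVE6, ELF4, FKF1 and other genes with few counts in the shallowest library.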
